A study of Danio rerio with 6 samples.

Results

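Messenger RNA of 8 rows chosen by name from the gene tables of zebrafish (Danio rerio) embryo trunks is described here, out of 24789 genes: dlc, dlb, dld, the gene ENSDARG00000007097, her1, her7, her15.1 and ripply1. They were chosen as Notch ligands and genes of the segmentation clock, with names matched to Ensembl gene IDs regardless of case. The name dld led to a row that the ID table calls DLD (ENSDARG00000008785). Capitals mark human names in that table, human DLD encodes dihydrolipoamide dehydrogenase, a mitochondrial enzyme, and RefSeq lists the zebrafish enzyme as dldh with dld as a synonym. Its values are therefore given, but not as those of a Notch ligand. Delta genes other than dlc and dlb are represented by 2 genes that carry the human name DLL1, which the zebrafish genes dla and dld share. ENSDARG00000007097 carries the name HES6 together with a second gene, ENSDARG00000019335. RefSeq lists hes6 and her13 separately, and the tables used here do not tell which ID is which, so both genes are given.

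The trunks were taken at 24 to 26 h after fertilization, with head and yolk cut away. The embryos came from crosses between carriers of a qkia mutation and were injected at the one-cell stage with 0.6 pmol of a morpholino, an antisense oligonucleotide that blocks a chosen transcript. The 3 control libraries were made from siblings, qkia+/+ or qkia+/-, that had received a control morpholino, and the 3 loss of function libraries from qkia-/- embryos that had received a qkic morpholino. Quaking proteins, which qkia and qkic encode, are RNA-binding regulators of splicing, mRNA stability and translation. Genotype and morpholino changed together, so their parts cannot be told apart, and the embryos were told apart by their morphology, per the labels. No source used here gives the number of embryos in a library. Only the spread between these libraries enters the p-values.

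Notch signalling passes between touching cells. A ligand of the Delta or Jagged family on 1 cell activates a Notch receptor on its neighbour, and the receptor's cut intracellular part switches on genes of the Hairy/E(spl) repressor family. In the presomitic mesoderm of the tail, repressors such as Her1 and Her7 switch off their own genes in cycles, DeltaC takes part in keeping neighbouring cells in step, and each cycle sets off 1 somite. At the front end of this tissue the cycling stops and Ripply proteins help to end it. The same ligands are also used in the developing spinal cord, where cells with high Delta become neurons and hold back their neighbours. A trunk at this age holds both tissues.

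The recovered reads per library ranged from 38804265 to 44799398. The qkia gene (ENSDARG00000097478) was counted at 61.7, 81.9 and 58.9 normalised reads in the control libraries and at 5.98, 6.93 and 3.34 in the loss of function libraries, a log2 change of -3.45 (limma adjusted p = 1.93e-07). Markers of muscle, neural progenitors and new neurons were above 0 in every library. Levels are read counts not divided by transcript length, so they are compared between libraries and not between genes. In a whole trunk, fewer cells of a type and less RNA per cell cannot be told apart.

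All 8 genes passed the filter on low values, and limma's test over all genes called 7 of them at an adjusted p under 0.05, 5 lower and 2 higher in the loss of function libraries. Without the row DLD, 6 of 7 were called, 5 lower and 1 higher. This stands against 41.9% of the 18917 genes tested, of which 20.0% were lower and 21.9% higher. These genes and the gene lists used below were chosen with earlier results of these data known. Comparisons of their shares with those of all genes are therefore descriptive and do not test for an excess. The groups did not overlap for 6 of the 7 genes, against 52.1% of all genes tested (25.4% lower and 26.8% higher). The median log2 change of the 7 was -0.28, and that of all genes tested was 0.00. A typical gene tested moved by 0.23, the median of the absolute log2 changes, beside which her15.1 moved less (-0.21), her1 slightly more (-0.28), and dlb (-0.41), ripply1 (0.43), HES6 (ENSDARG00000007097, -0.50) and dlc (-0.66) more.

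**Figure D1:**
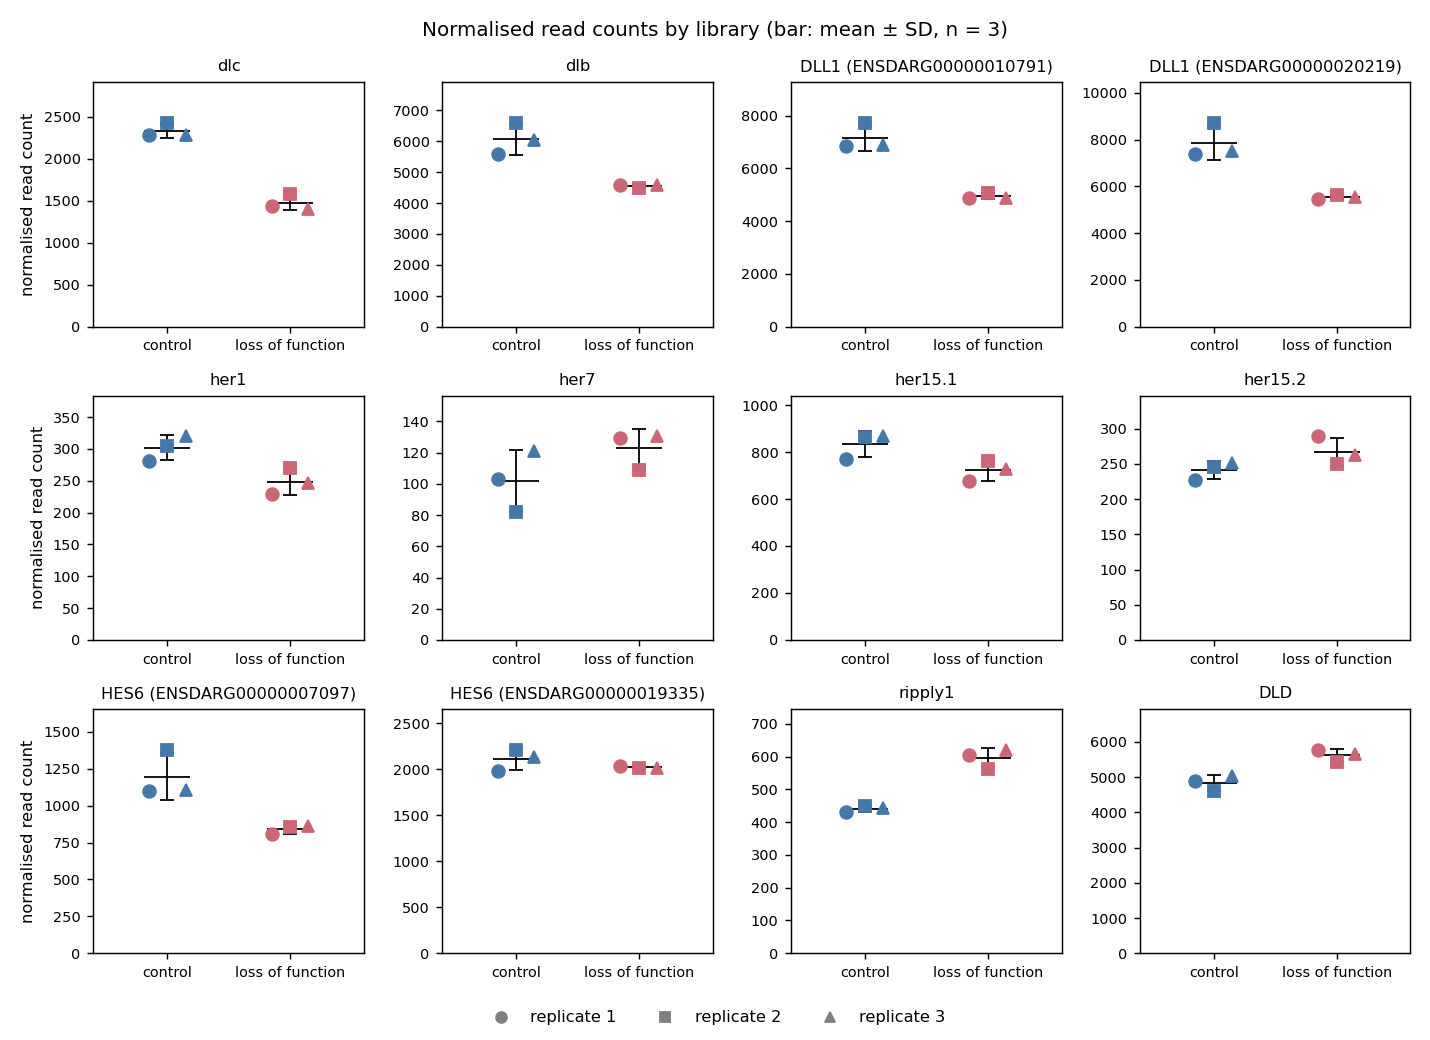
Normalised read counts (y axis, from 0) of the 7 genes, the row DLD and 4 related genes in each library; symbols mark the replicate number and bars give the mean ± SD (n = 3). The control libraries lie above the loss of function libraries for dlc, dlb, both DLL1 genes, her1, her15.1 and HES6 (ENSDARG00000007097), below them for ripply1 and DLD, and overlap them for her7, her15.2 and HES6 (ENSDARG00000019335).

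Among the Notch ligands, dlc, dlb and both DLL1 genes were lower in every loss of function library than in any control library. The gene dlc (ENSDARG00000002336) encodes DeltaC, the ligand whose own transcription cycles in the presomitic mesoderm. It was counted at 2284, 2426 and 2288 in control replicates 1, 2 and 3 and at 1442, 1576 and 1406 in loss of function replicates 1, 2 and 3. Replicate 2 was the highest library of each group, and even the highest loss of function library lay far below the lowest control. The mean fell from 2333 ± 81.1 (SD, n = 3) to 1475 ± 89.7 (SD, n = 3), or 36.8% lower. The log2 change was -0.66 (95% interval -0.78 to -0.54, SE 0.06, limma adjusted p = 1.70e-07). By size it stood at rank 1746 of all genes tested in either direction, and at rank 1088 among those with a negative log2 change.

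The gene dlb (ENSDARG00000004232) encodes DeltaB, a ligand of newly forming neurons. Its counts were 5589.6, 6589.5 and 6033 in the controls and 4576, 4487 and 4583 in the loss of function libraries. The controls were spread widely, with replicate 1 lowest and replicate 2 highest, while the loss of function libraries lay close together below them. The mean fell 1.33-fold, from 6071 ± 501 to 4549 ± 53.3 (SD, n = 3 each), a log2 change of -0.41 (95% interval -0.53 to -0.29, SE 0.06, limma adjusted p = 2.14e-05).

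The 2 DLL1 genes encode Delta ligands of neural cells and, for dld, of the presomitic mesoderm. DLL1 (ENSDARG00000010791) was counted at 6829.7, 7714 and 6882 in the controls and at 4882, 5076 and 4861 in the loss of function libraries. DLL1 (ENSDARG00000020219) was counted at 7368, 8704 and 7524 and then at 5461, 5629 and 5551. For both genes replicate 2 was the highest of the controls and the groups were well apart. The first fell 1.45-fold, with a log2 change of -0.53 (95% interval -0.64 to -0.42, limma adjusted p = 1.01e-06). The second fell 1.42-fold, with a log2 change of -0.50 (95% interval -0.62 to -0.38, limma adjusted p = 4.80e-06). These intervals overlap that of dlc and that of dlb. In RefSeq, a long noncoding RNA overlaps dla, while no gene overlaps dld. The libraries did not keep the strand, so reads of dla and of that RNA cannot be told apart by strand.

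All 9 Notch ligand genes tested passed the test, 7 lower and 2 higher, with a median log2 change of -0.38 against 0.00 for all genes tested. That is 77.8% lower and 22.2% higher, against 20.0% and 21.9% of all genes tested. The list was chosen with earlier results of these data known, so these shares only describe it. Of the others that were lower, dll4, a ligand of sprouting vessels, fell from 449 ± 43.9 to 344 ± 16.8 (log2 change -0.38, limma adjusted p = 0.00221). The Jagged gene jag1a fell from 2381 ± 212 to 1835 ± 71.7 (log2 change -0.37, limma adjusted p = 1.56e-04). Its relative jag2b fell from 2414 ± 85.3 to 1988 ± 66.0 (log2 change -0.28, limma adjusted p = 3.88e-04). The ligand genes that rose were both Jagged genes, the other copies of these pairs. The gene jag1b rose from 1008 ± 35.9 to 1205 ± 30.5 (log2 change 0.26, limma adjusted p = 0.00173), a call lost when the libraries were scaled to equal totals. The sparsely counted jag2a rose from 32.5 ± 7.81 to 54.6 ± 3.18 (log2 change 0.76, limma adjusted p = 0.00940), on 24 to 40 reads in the controls and 49 to 58 in the loss of function libraries. The summed level of the 9 ligands ranged from 28060.1 to 32076 in the controls and from 21691 to 22232 in the loss of function libraries. Most of this sum came from dlb and both DLL1 genes, so it mainly restates their fall and says little of the others.

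Markers of newly forming neurons moved with the ligands. Of 10 tested genes in the list of proneural factors and new neurons, 8 fell, 0 rose and 2 were not called, with a median log2 change of -0.44. Of all genes tested, 20.0% fell. The groups were apart in the lower direction for all 10 list genes, against 25.4% of all genes. This list, too, was chosen with earlier results known, so an excess over all genes was not tested. INSM1 (ENSDARG00000053301), a factor of neurons leaving the cell cycle, fell by 0.55 on the log2 scale (limma adjusted p = 4.08e-06). ELAVL3, a marker of young neurons, fell by 0.51 on the log2 scale (limma adjusted p = 1.23e-06). EBF2, a factor of early neurons, fell by 0.51 on the log2 scale (limma adjusted p = 5.89e-06). For 2 proneural genes, ascl1a (log2 change -0.18, limma adjusted p = 0.0521) and NEUROD1 (log2 change -0.14, limma adjusted p = 0.170), the test was not passed. The former passed it under 4 of the 16 alternatives and the latter under 1, both as lower. The summed level of the list ranged from 16092 to 18395 in the controls and from 12838 to 12904 in the loss of function libraries. Control replicate 2 was the highest control for 8 of these 10 genes and for 7 of the 9 ligands. This order was not particular to them. Control replicate 2 was also highest for all 9 neural progenitor genes, 5 of 6 muscle genes and 11 of 20 Hairy/E(spl) genes. It was highest for 5 of 19 genes of presomitic mesoderm and somite formation and for 0 of 3 receptor genes. The part of the fall of new-neuron genes in the ligand values was not tested.

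Markers of neural progenitors showed no such common direction. Of 9 tested, 3 were lower, 2 higher and 4 not called (55.6% called, against 41.9% of all genes tested), with a median log2 change of -0.03. The intermediate filament genes nes (log2 change -0.41, limma adjusted p = 6.98e-05) and GFAP (log2 change -0.31, limma adjusted p = 2.14e-04) and the transcription factor gene SOX3 (log2 change -0.18, limma adjusted p = 0.0174) fell, the last with a call lost under 5 of the 16 alternatives, 4 of which left out 1 library (control replicate 2, adjusted p = 0.0693, or any of the loss of function libraries, adjusted p from 0.0551 to 0.0761). Both genes named FABP7, a fatty acid binding protein of radial glia, rose. FABP7 (ENSDARG00000034650) had a log2 change of 1.57 (limma adjusted p = 1.43e-05) and FABP7 (ENSDARG00000007697) one of 0.65 (limma adjusted p = 4.27e-06). With libraries scaled to equal totals, the number of genes called in this list went from 5 to 8, 6 of them lower. That scaling also called 6225 of the 18917 genes tested as lower, against 3792 in the main test.

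**Figure D2:**
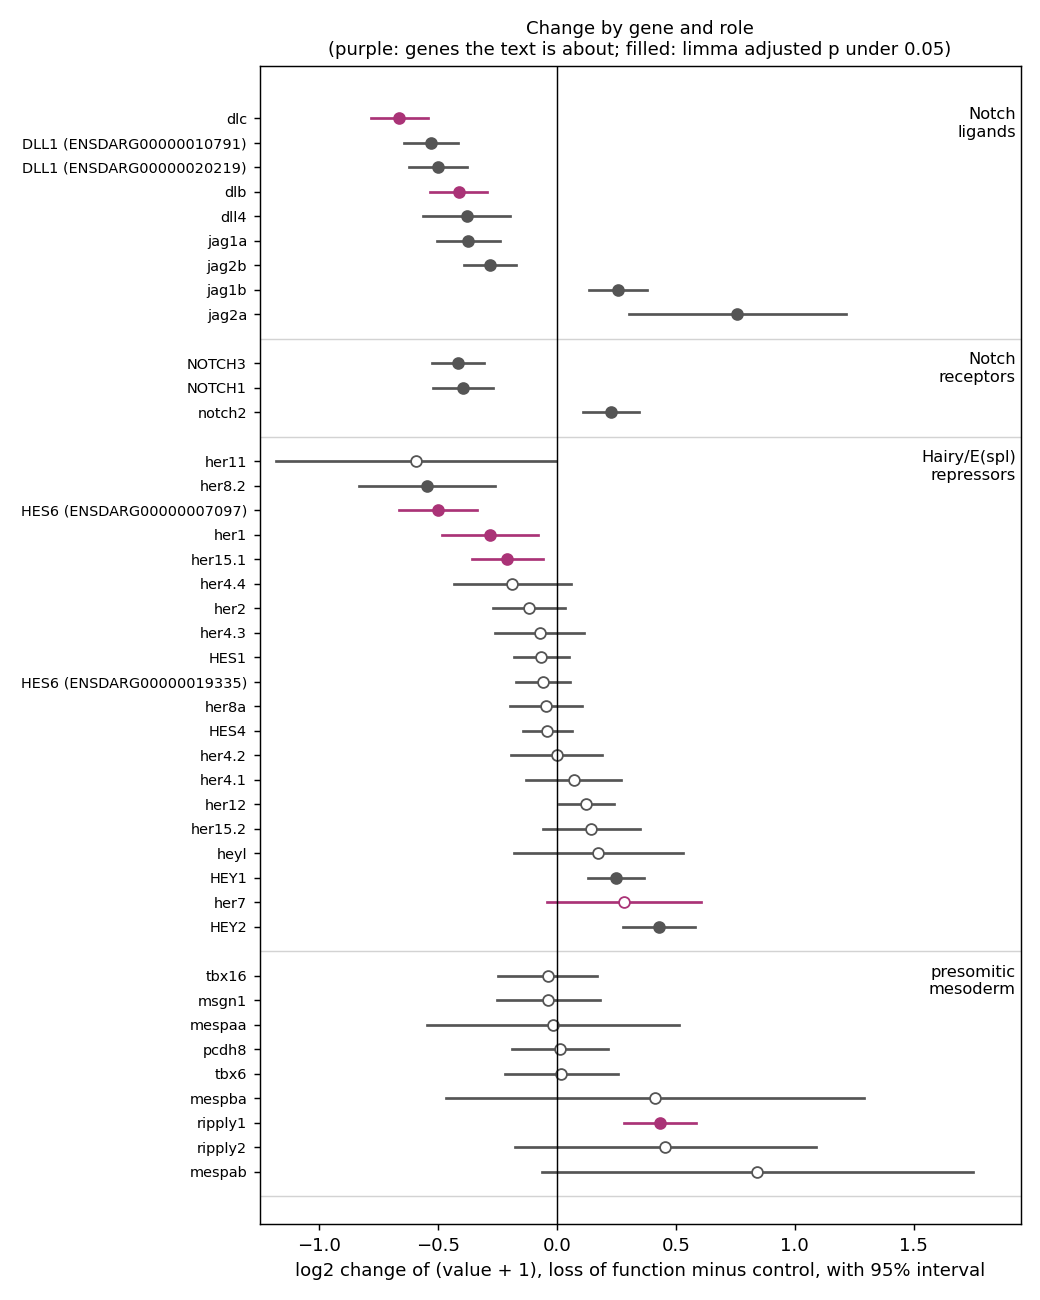
Log2 change of (value + 1), loss of function minus control (x axis), with its 95% interval for each tested Notch ligand, receptor and Hairy/E(spl) gene and for 9 of the 19 tested genes of presomitic mesoderm and somite formation; filled points passed limma's test and purple marks the 7 genes. The ligands lie to the left of 0 apart from jag1b and jag2a, the repressors lie on both sides of 0, and ripply1 lies to its right. So do the open points of mespab (0.84), ripply2 (0.46) and mespba (0.41). The other called genes of the presomitic list, ALDH1A2, TCF15, UNCX and MEOX1, are not shown.

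Of the 3 tested receptor genes, 2 fell and 1 rose, where 20.0% of all genes tested fell and 21.9% rose. The receptors, too, were listed with earlier results known, so an excess over all genes was not tested. NOTCH3, a receptor of neural progenitors and mural cells, fell from 4513 ± 273 to 3377 ± 57.1 (log2 change -0.42, limma adjusted p = 1.02e-05). NOTCH1 (ENSDARG00000052094) fell from 1486 ± 100.2 to 1129 ± 31.7 (log2 change -0.39, limma adjusted p = 6.59e-05). Zebrafish have the genes notch1a and notch1b, and the tables used here do not tell which of them this is. The other copy is not among the receptor genes tested. The gene that rose was notch2, which went from 2468 ± 167 to 2889 ± 78.0 (log2 change 0.23, limma adjusted p = 0.00330), a call lost with libraries scaled to equal totals (adjusted p = 0.225) and without the variance trend (adjusted p = 0.0505).

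Of 21 genes that process or carry the signal, 8 fell, 4 rose and 9 were not called, with a median log2 change of -0.08. The share called was 57.1%, against 41.9% of all genes tested. The largest fall in the list was that of a gene for the Groucho co-repressor TLE3 (ENSDARG00000002787), which works with Hairy/E(spl) proteins, with a log2 change of -0.82 (limma adjusted p = 2.27e-08). NRARP (ENSDARG00000018958), a target gene and feedback inhibitor of the pathway, fell from 823 ± 54.5 to 548 ± 24.4 (log2 change -0.58, limma adjusted p = 6.77e-06). The other gene of that name, NRARP (ENSDARG00000091419), had a log2 change of 0.02 (limma adjusted p = 0.721), and its sign turned under 3 of the 16 alternatives. With libraries scaled to equal totals it passed the test as lower (-0.12, adjusted p = 0.0308). LFNG, the fringe glycosyltransferase that alters how Notch answers its ligands, fell from 11014 ± 1098 to 8687 ± 242 (log2 change -0.34, limma adjusted p = 3.05e-04). APH1B, a subunit of the gamma-secretase that cuts Notch, rose by a log2 change of 0.28 (limma adjusted p = 2.46e-04), and adam10a, the protease acting before it, by 0.21 (limma adjusted p = 0.00295). The rise of adam10a was no longer called with libraries scaled to equal totals. Its other copy, adam10b, went the other way and fell (log2 change -0.36, limma adjusted p = 8.46e-04).

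Of the clock repressors, her1 was lower and her7 was not called in either direction. Both encode Hairy-related proteins that cycle in the presomitic mesoderm and repress their own genes. The gene her1 (ENSDARG00000014722) was counted at 281, 305 and 319.7 in the controls and at 229, 269 and 246 in the loss of function libraries. The groups did not overlap, but loss of function replicate 2 came close to control replicate 1. The mean fell 1.22-fold, from 302 ± 19.4 to 248 ± 20.0 (SD, n = 3 each), a log2 change of -0.28 (95% interval -0.48 to -0.08, SE 0.10, limma adjusted p = 0.0251). The direction held under all 16 alternatives, with values from -0.42 to -0.23. The call was lost under 5 of them, among which were leaving out control replicate 3 (adjusted p = 0.0701), loss of function replicate 1 (adjusted p = 0.127) or loss of function replicate 3 (adjusted p = 0.0703).

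The gene her7 (ENSDARG00000017917) was counted at 103, 81.9 and 121 in the controls and at 129.6, 109 and 130.4 in the loss of function libraries, on 83 to 130 reads. The groups overlapped, since control replicate 3 lay above loss of function replicate 2, and control replicate 2 was the lowest of all. The means were 102 ± 19.5 and 123 ± 12.2 (SD, n = 3 each), with a log2 change of 0.28 (95% interval -0.04 to 0.60, SE 0.15, limma adjusted p = 0.154). Without control replicate 3 the value was 0.41 and passed the test (adjusted p = 0.0414). In RefSeq, the span of a long noncoding RNA overlaps those of both her1 and her7. Whether their exons overlap was not examined. The libraries did not keep the strand, so reads of the genes and of that RNA cannot be told apart by strand.

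The gene her15.1 (ENSDARG00000054562) encodes a repressor of the same family, related to mammalian HES5, that is expressed in neural tissue and in presomitic mesoderm. It was counted at 769, 865 and 867 in the controls and at 675, 762 and 727 in the loss of function libraries. The highest loss of function library, replicate 2, lay just under the lowest control, replicate 1. The mean fell 1.16-fold, from 834 ± 56.3 to 721 ± 43.9 (SD, n = 3 each), a log2 change of -0.21 (95% interval -0.36 to -0.06, SE 0.07, limma adjusted p = 0.0252). That call, too, was lost under 5 of the 16 alternatives, 4 of which left out 1 library: control replicate 2 (adjusted p = 0.0643), control replicate 3 (adjusted p = 0.0568), loss of function replicate 1 (adjusted p = 0.145) and loss of function replicate 3 (adjusted p = 0.0639).

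Its neighbour and near copy her15.2 (ENSDARG00000054560) was counted at 227, 246 and 252 in the controls and at 289, 249 and 263 in the loss of function libraries. The groups overlapped, and the log2 change was 0.15 (95% interval -0.06 to 0.35, limma adjusted p = 0.242). No source used here says how reads that match both copies were assigned, so the split between them is uncertain. The sum of both was 995, 1111 and 1118 in the controls and 964, 1012 and 990.0 in the loss of function libraries. The summed values overlapped, with a difference of -0.12 on the log2 scale (2-sided exact permutation test, p = 0.2, where 0.1 is the smallest p that 3 against 3 libraries allow). The filamin gene flnba overlaps both in RefSeq.

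Zebrafish Hes6 is a relative of the cycling repressors that does not itself cycle but pairs with them, and that also acts in neural differentiation. Which of HES6 (ENSDARG00000007097) and HES6 (ENSDARG00000019335) is hes6 cannot be told here, so this role is assigned to neither. The first was counted at 1103, 1379 and 1106 in the controls and at 806, 855 and 861 in the loss of function libraries. Control replicate 2 stood above the other 2 controls, and all 3 lay above the loss of function libraries. The mean fell 1.42-fold, from 1196 ± 159 to 841 ± 30.3 (SD, n = 3 each), a log2 change of -0.50 (95% interval -0.67 to -0.34, SE 0.08, limma adjusted p = 7.60e-05). The second was counted at 1976, 2213 and 2138 and then at 2038, 2013 and 2017. Its groups overlapped, with a log2 change of -0.06 (95% interval -0.17 to 0.06, limma adjusted p = 0.405). With libraries scaled to equal totals its value was -0.20 and passed the test (adjusted p = 0.00451). In RefSeq, the protein-coding gene itm2cb overlaps hes6, while no gene overlaps her13. Reads of hes6 and itm2cb cannot be told apart by strand in these libraries.

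Of the 20 tested Hairy/E(spl) genes, 4 were lower, 2 higher and 14 not called, with a median log2 change of -0.05. The 6 called of 20 are a smaller share than the 41.9% of all genes tested, and the share lower, 20.0%, equalled that of all genes. The lower ones were her1, her15.1, HES6 (ENSDARG00000007097) and her8.2 (log2 change -0.55, limma adjusted p = 0.00363), which was not called without the variance trend (adjusted p = 0.0544). All of these but her8.2 were among the genes chosen by name, so the equal share lower came mostly from chosen genes. Leaving out her1, her7, her15.1 and HES6 (ENSDARG00000007097), 16 genes were tested, of which 1 was lower and 2 were higher. The higher ones were HEY2, a Notch target gene of vessels and heart (log2 change 0.43, limma adjusted p = 1.48e-04), and HEY1 (log2 change 0.25, limma adjusted p = 0.00179). The 4 tested copies of her4, Notch target genes of neural progenitors, had log2 changes from -0.19 to 0.07 with the lowest adjusted p at 0.211. Scaling to equal totals raised the number called from 6 to 12, with 11 lower and 1 higher, and HEY1 was then not called. Under that scaling the median log2 change of all genes tested moved by -0.14. Of the 18917 genes tested, it called 8372, with 6225 of them lower, against 7935 and 3792 in the main test.

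**Figure D3:**
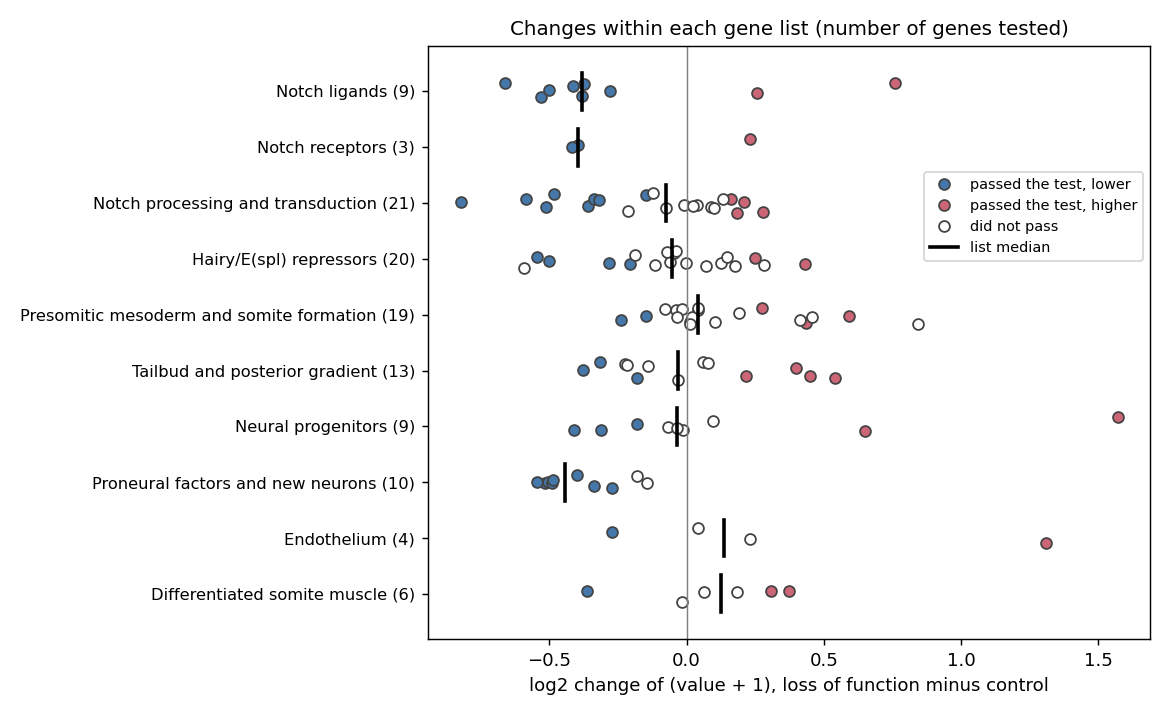
Log2 change of (value + 1), loss of function minus control (x axis), for each tested gene of 10 lists (y axis, with the number tested); blue and red points passed limma's test, open points did not, and the black bar is the list's median. Ligands (-0.38) and new neurons (-0.44) have medians well to the left of 0, while Hairy/E(spl) genes (-0.05) and presomitic mesoderm genes (0.04) lie around it.

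The gene ripply1 (ENSDARG00000054103) rose, against the direction of the other called clock genes. Ripply1 acts at the front of the presomitic mesoderm, where it removes Tbx6 protein and so marks the forming somite border. It was counted at 430.1, 448 and 445 in the controls and at 605, 563 and 621 in the loss of function libraries. The controls lay within a narrow band and every loss of function library lay above it. The mean rose 1.35-fold, from 441 ± 9.48 to 597 ± 29.8 (SD, n = 3 each), a log2 change of 0.43 (95% interval 0.28 to 0.59, SE 0.07, limma adjusted p = 1.32e-04). It kept its direction and its call under all 16 alternatives, with values from 0.30 to 0.48.

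The called genes of presomitic mesoderm and somite formation went in both directions. Of 19 tested, 3 were higher, 2 lower and 14 not called, with a median log2 change of 0.04. The share called was 26.3%, under the 41.9% of all genes tested. Those higher beside ripply1 were ALDH1A2, the retinoic acid synthesis enzyme of somites, which rose from 2225 ± 252 to 3343 ± 63.1 (log2 change 0.59, limma adjusted p = 2.68e-06), and TCF15, a factor of the somite epithelium (log2 change 0.27, limma adjusted p = 0.00413). TCF15 was no longer called with libraries scaled to equal totals. Those lower were UNCX, of the rear part of each somite (log2 change -0.24, limma adjusted p = 0.00558), and MEOX1 (log2 change -0.15, limma adjusted p = 0.0495), whose call was lost under 8 of the 16 alternatives. The paralogue ripply2, on 22 to 57 reads, was not called (log2 change 0.46, limma adjusted p = 0.239). Nor were mespab, on 4 to 16 reads (log2 change 0.84, limma adjusted p = 0.127), and mespba, on 7 to 27 reads (0.41, adjusted p = 0.452). The related mespaa, on 24 to 34 reads, was at -0.02 (limma adjusted p = 0.963). On so few reads, whether these genes moved with ripply1 cannot be told.

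The genes that define the unsegmented presomitic mesoderm overlapped between the groups. The gene tbx6 was counted at 893, 745 and 1199 in the controls and at 961, 950.4 and 909 in the loss of function libraries. Its log2 change was 0.02 (95% interval -0.22 to 0.26, limma adjusted p = 0.907), its sign turned under 6 of the alternatives, and without control replicate 3 it was 0.20 with an adjusted p of 0.0296. The gene msgn1, needed for cells to enter this tissue, was counted at 439, 472 and 619 and then at 473, 487 and 517 (log2 change -0.04, limma adjusted p = 0.810). Control replicate 3 was high for both genes. It was the highest control for 13 of the 19 presomitic genes and control replicate 1 the lowest for 12. The low place of control replicate 1 was not particular to them. It was also lowest for all 9 neural progenitor genes, 15 of 20 Hairy/E(spl) genes and 7 of 9 ligands. For muscle it was lowest for 1 of 6 genes and for receptors 0 of 3. Such orders were not counted over all genes tested. The controls differed among themselves more than the loss of function libraries did. The chi-square per degree of freedom over genes was 7.90 to 14.2 for pairs of controls. For pairs of loss of function libraries it was at most 2.45. The values of tbx16 (log2 change -0.04, limma adjusted p = 0.779) and of pcdh8, a cell adhesion gene of the same tissue (log2 change 0.01, limma adjusted p = 0.926), did not pass the test either. Whether control replicate 3 held more of this tissue was not tested.

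Genes were also compared within each library, where the scaling between libraries cancels. The smallest p that the 2-sided exact permutation test allows here is 0.10, so no pair can pass 0.05. The ratio of dlb to dlc was higher in every loss of function library, by 0.25 on the log2 scale (exact p = 0.1, 0.14 after adjustment over the 7 pairs planned). The ratio of her7 to her1 was higher by 0.56 and that of ripply1 to her1 by 0.72, both with the groups apart and the same p. For her7 to her1 they were only narrowly apart, with the highest control at -1.40 and the lowest loss of function library at -1.30. For ripply1 to her1 these were 0.61 and 1.06. The ratio of her15.1 to her1 overlapped between the groups, with a difference of 0.07 (exact p = 0.2, adjusted 0.233), and so did HES6 (ENSDARG00000007097) to her1, with -0.22 (exact p = 0.3, adjusted 0.3). With DLD below the line, dlc differed by -0.88 and dlb by -0.63, with the groups apart (exact p = 0.1, adjusted 0.14).

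A further 6 pairs were chosen after the values were seen. HES6 (ENSDARG00000007097) against HES6 (ENSDARG00000019335) differed by -0.44 and her15.1 against her15.2 by -0.35, with the groups apart. Against DLL1 (ENSDARG00000010791), dlc differed by -0.13 and dlb by 0.12, again with the groups apart. Against DLL1 (ENSDARG00000020219), both dlc (-0.16) and dlb (0.09) overlapped between the groups (exact p = 0.2).

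**Figure D4:**
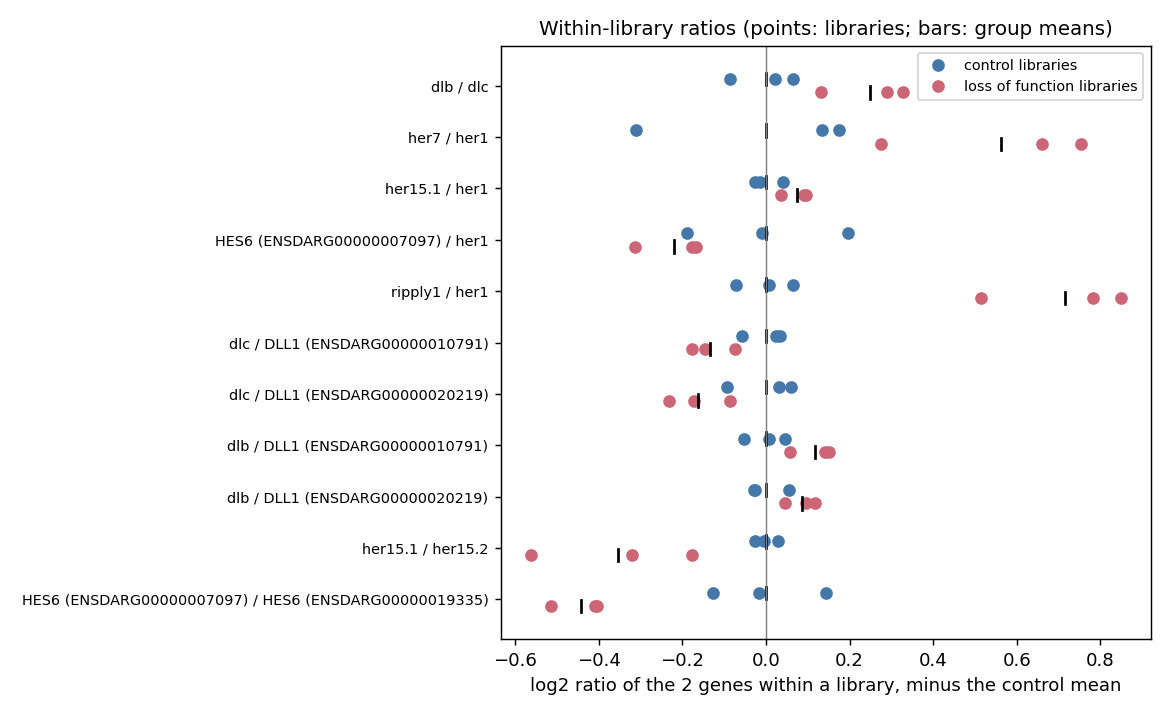
Log2 ratio of the 2 named genes within a library, minus the mean of the control libraries (x axis), for 11 of the 13 pairs (those with DLD are left out); points are libraries and bars are group means. The groups are apart for ripply1 to her1 (difference 0.72), her7 to her1 (0.56), dlb to dlc (0.25), both pairs of like-named copies and both DLL1 (ENSDARG00000010791) pairs.

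The row DLD (ENSDARG00000008785), counted at 4885, 4594 and 5044 in the controls and at 5779, 5417 and 5652 in the loss of function libraries, was apart between the groups. It rose 1.16-fold, with a log2 change of 0.21 (95% interval 0.11 to 0.32, SE 0.05, limma adjusted p = 0.00264). With libraries scaled to equal totals the value was 0.08 and was not called (adjusted p = 0.212).

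The gene of the 8 with the largest change past the test was dlc, and the genes with the most similar profile over the 6 libraries were sought among all tested genes with a symbol. The measure was the root mean square difference of log2 values, each profile centred on its own mean. The nearest was tek, an endothelial receptor gene, at a difference of 0.0192, with 482, 520.0 and 487 in the controls and 299, 325 and 295 in the loss of function libraries. The next were arhgef18a (0.0238), KLF11 (0.0292) and lifrb (0.0343). Their log2 changes were -0.69 for tek, -0.68 for arhgef18a, -0.62 for KLF11 and -0.67 for lifrb. With a step between the groups as the main feature of all these profiles, 6 libraries tell such genes apart poorly.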

How the data were processed

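Poly(A) RNA of 3 control and 3 loss of function libraries was sequenced with 50 bp reads from unstranded TruSeq libraries made from 0.7 µg of RNA, per the labels' protocols. Titles gave each library its group and replicate number. What the authors deposited is a normalized signal per gene: in the files, 100% of the values of each library are whole reads (within 0.001 of a read) divided by a single size factor of that library, from 0.897 to 1.13, and the reads were recovered from this. Named in the submitters' processing notes, without their roles, are DESeq 1.8.3, HTSeq 0.5.3, SAMtools, Bowtie 0.12.9 and STAR 2.4.0j, with build Zv9. The tables of exons carry no gene pairing and were not used.

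The main test was limma 3.58.1 (R 4.3.3, eBayes with trend) on log2(deposited value + 1), for genes that reached a value of 10 in 3 or more of the 6 libraries. P-values are 2-sided, with Benjamini-Hochberg adjustment over 18917 genes and a threshold of 0.05. Changes on this log2 scale understate those of low genes, and fold changes are ratios of mean values. Ratios within a library were compared by an exact permutation test. Tables were handled with Python 3.11.15 and pandas 2.3.3. The test was also run on simulated data with 200 genes changed and the same spread in both groups. In the real data more genes were called and the controls were spread more widely, so that run does not cover them. Alternatives were edgeR 4.0.16 and DESeq2 1.42.0 on the recovered reads, a pseudocount of 0.5 or 5, other filters and scalings, no variance trend, a replicate block and each library left out in turn.

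The 8 members and the 10 gene lists were chosen with earlier results of these data known. Of 130 listed genes, 106 were matched, 58 of them by the human name, giving 118 list entries, since 1 name can match several copies. Symbols came from a table of Ensembl IDs (18555 of 24789 IDs had one), and neighbouring and overlapping genes from RefSeq assembly GRCz12tu, whose build differs from that of the files. No coordinates or sequences are given.

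Named were the 8 members and, per list of ligands, receptors, Hairy/E(spl) and presomitic genes, up to 4 genes with the smallest adjusted p, with all genes of a direction that held 5 or fewer. The 4 profiles nearest to the member with the largest called change were also named. Others were chosen after their values were seen: the DLL1, HES6 and her15 copies, the her4 copies, tbx6, tbx16, msgn1, pcdh8, ripply2, mespaa, mespab, mespba, the remaining ligands, and the genes named from other lists.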

Additional observations from a re-analysis of the deposited data

How the results depend on the processing

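Over 16 alternatives and 8 genes, 116 of 128 values kept their direction and side of the threshold, 11 lost the call, 1 gained it and 0 changed sign. The values of dlc ranged from -0.80 to -0.63, of dlb from -0.55 to -0.35, of HES6 (ENSDARG00000007097) from -0.64 to -0.39 and of ripply1 from 0.30 to 0.48, all called throughout. The call of her1 was lost with DESeq2 (-0.29, adjusted p = 0.0517) and with quantile normalization (-0.24, adjusted p = 0.0565). It was -0.34 to -0.23 with 1 library left out. For her15.1, the call was lost without the variance trend (-0.21, adjusted p = 0.0913), and with 1 library left out the value was -0.27 to -0.16. For her7 that range was 0.13 to 0.41. Scaling to equal totals gave 0.076 for DLD and called 12 Hairy/E(spl) genes and 8 neural progenitor genes. It also moved the split of called genes to 2147 higher and 6225 lower, against 4143 and 3792. The number of genes called ranged from 6077 to 8372 over the alternatives, and the number of the 8 members from 5 to 7.

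Signs turned for genes whose value was near 0. The value of tbx6 was -0.013 with DESeq2, -0.011 with edgeR, -0.0073 with quantile normalization and -0.12 with equal totals, and from -0.14 to 0.20 with 1 library left out. That of pcdh8 was -0.13 with equal totals and from -0.11 to 0.090 with 1 library left out. NRARP (ENSDARG00000091419) was at -0.12 with equal totals, where it was called, -0.059 with quantile normalization and from -0.0045 to 0.040 with 1 library left out. Without control replicate 3, tbx16 was at 0.073 and msgn1 at 0.11. The cause was not tested.

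Same-numbered libraries did not deviate together (correlations of -0.0750, 0.0079 and -0.0216). With 3 libraries per group, such correlations cannot exclude that the numbers pair the libraries. With the replicate number as a block, 7814 genes were called against 7935, and 7 members as before. Reads of her7, ripply2, mespaa, mespab, mespba and jag2a were few, which limits what could be seen of them.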

Other observations

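Genes of the tailbud and its posterior gradients, which feed the presomitic mesoderm, went in both directions: of 13 tested, 4 were higher, 3 lower and 6 not called, with a median log2 change of -0.03. The share called was 53.8%, against 41.9% of all genes tested, with 30.8% higher against 21.9% and 23.1% lower against 20.0%. The Wnt inhibitor gene dkk1b rose from 266 ± 21.7 to 386 ± 22.4 (log2 change 0.54, limma adjusted p = 1.50e-04). FGF8 (ENSDARG00000003399), a ligand of the gradient that keeps cells unsegmented, rose from 279 ± 38.9 to 379 ± 6.40 (log2 change 0.45, limma adjusted p = 0.00133). The other gene of that name, FGF8 (ENSDARG00000039615), on 29 to 47 reads, was not called (log2 change 0.06, limma adjusted p = 0.849). The posterior factor cdx4 rose from 931 ± 178 to 1212 ± 55.8 (log2 change 0.40, limma adjusted p = 0.00281), a call lost without the variance trend (adjusted p = 0.0722). SPRY4, a feedback inhibitor of Fgf signalling, fell from 887 ± 98.9 to 681 ± 34.1 (log2 change -0.38, limma adjusted p = 0.00102), and CYP26A1, which breaks down retinoic acid, fell from 817 ± 68.5 to 655 ± 28.9 (log2 change -0.32, limma adjusted p = 0.00213). The remaining called genes were ETV4, which rose (log2 change 0.22, limma adjusted p = 0.00473), and DUSP6, which fell (log2 change -0.18, limma adjusted p = 0.0105). The call of ETV4 was lost with libraries scaled to equal totals (adjusted p = 0.225), and that of DUSP6 under 2 of the 16 alternatives. Control replicate 3 was the highest control for 8 of these 13 genes.

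Of the 4 endothelial genes tested, 1 rose and 1 fell (50.0% called, against 41.9% of all genes tested). The adhesion gene cdh5 rose from 60.7 ± 5.16 to 154 ± 30.7 (log2 change 1.31, limma adjusted p = 7.91e-06), while FLI1 fell from 978 ± 86.0 to 808 ± 29.0 (log2 change -0.27, limma adjusted p = 0.00447). Of 6 genes of differentiated somite muscle, 2 rose, 1 fell and 3 were not called, again 50.0% called. MYOG, a differentiation factor of muscle, rose from 3836 ± 612 to 4931 ± 59.2 (log2 change 0.37, limma adjusted p = 0.00102), a call lost without the variance trend (adjusted p = 0.0552). ACTA1 (ENSDARG00000036371) fell (log2 change -0.36, limma adjusted p = 7.70e-05), while ACTA1 (ENSDARG00000055618) rose (0.31, adjusted p = 0.00497). Not called were MYOD1 (-0.02, adjusted p = 0.828), MYF5 (0.06, adjusted p = 0.490) and ckma (0.19, adjusted p = 0.0798).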
